A study of Mus musculus with 3 samples.

Results

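The genes described here encode the subunits, activators, inhibitor and assembly factors of the proteasome, the protease that degrades ubiquitin-tagged proteins. They were chosen by symbol alone: rows whose symbol begins with Psma, Psmb, Psmc, Psmd, Psme, Psmf or Psmg followed by a digit, without those marked as pseudogenes. This gave 50 genes of the 32531 gene symbols in each deposited table. By role they comprised 7 α-ring and 7 constitutive β-ring subunits of the 20S core, 3 immunosubunits, 2 tissue-restricted core subunits, 9 subunits of the 19S base and 8 of the 19S lid, 5 activator genes, 1 inhibitor and 7 assembly chaperones. The last gene, Psmc3ip, shares the symbol stem, but it encodes a partner of meiotic recombinases and is not a proteasome subunit.

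The 20S core is a barrel of stacked rings. The outer rings of α subunits gate the entrance, and the inner rings of β subunits carry the proteolytic sites on Psmb6 (β1, caspase-like), Psmb7 (β2, trypsin-like) and Psmb5 (β5, chymotrypsin-like). The 19S particle caps the barrel: its base holds a ring of ATPases that unfold substrates, and its lid holds the deubiquitinase that removes ubiquitin chains. Interferon replaces the catalytic subunits with Psmb9, Psmb10 and Psmb8 to form the immunoproteasome, whose peptides feed antigen presentation, and in brain this form is known mainly from microglia and inflamed tissue. In neurons the proteasome sets the turnover of synaptic proteins.

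All values came from 1 group of adult Slc17a6-TRAP JX883 mice, which carry the Slc17a6-EGFP/Rpl10a transgene and received no treatment. The tagged ribosomal protein L10a is made under control of Slc17a6, the gene of the vesicular glutamate transporter VGLUT2, so that polysomes pulled down with antibodies to EGFP report messages under translation in the tagged cells. Polysomal RNA of the prefrontal cortex was sequenced in 3 libraries, replicates 1, 2 and 3, each pooled from 3 mice, with totals between 8964137 and 12648577 counts over named genes. No input or second group was analysed here, so levels describe abundance in the immunopurified RNA, not enrichment. The labels do not say whether any mouse gave tissue to more than 1 library, so p-values measure the spread between these libraries, which may be technical. Counts of no pair of libraries agreed within sampling noise (chi-square per degree of freedom between 12.5 and 17.4).

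Markers of the labelled cells were present. All 6 glutamatergic markers reached 1 TPM (transcript abundance scaled to gene length and to the library total) in every library. They summed to 3352 to 3600 TPM, with Slc17a6 at 753 ± 87.5 TPM (SD, n = 3). Markers of other cells were present too, at summed levels of 607.9 to 649 TPM for 3 GABAergic markers, 369 to 509.7 for 5 oligodendrocyte markers, 59.9 to 97.4 for 5 astrocyte markers and 70.8 to 99.6 for 8 microglial markers. Sums were 17.0 to 19.01 TPM for 5 endothelial markers and 5.93 to 14.7 for the 3 blood markers in the tables. Among the GABAergic markers Gad2 stood at 521 ± 36.2 TPM, Gad1 at 51.3 ± 4.21 and Slc32a1 at 54.3 ± 15.7 TPM.

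Proteasome messages were abundant on the tagged ribosomes. Of the 50 genes, 47 reached 1 TPM in every library, and 49 had a count in at least 1 library. The median over the 50 genes was 107 TPM, against 19.2 TPM over the 14025 genes that had at least 10 counts in a library and an annotated length. Together they held 0.381%, 0.367% and 0.351% of named counts in replicates 1, 2 and 3. All 31 constitutive subunits of the core, base and lid stood at 10 TPM or more in every library. The parts of the complex differed: core subunits had a median well above that of the chaperones, and the 2 tissue-restricted subunits were at or near 0.

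**Figure D1:**
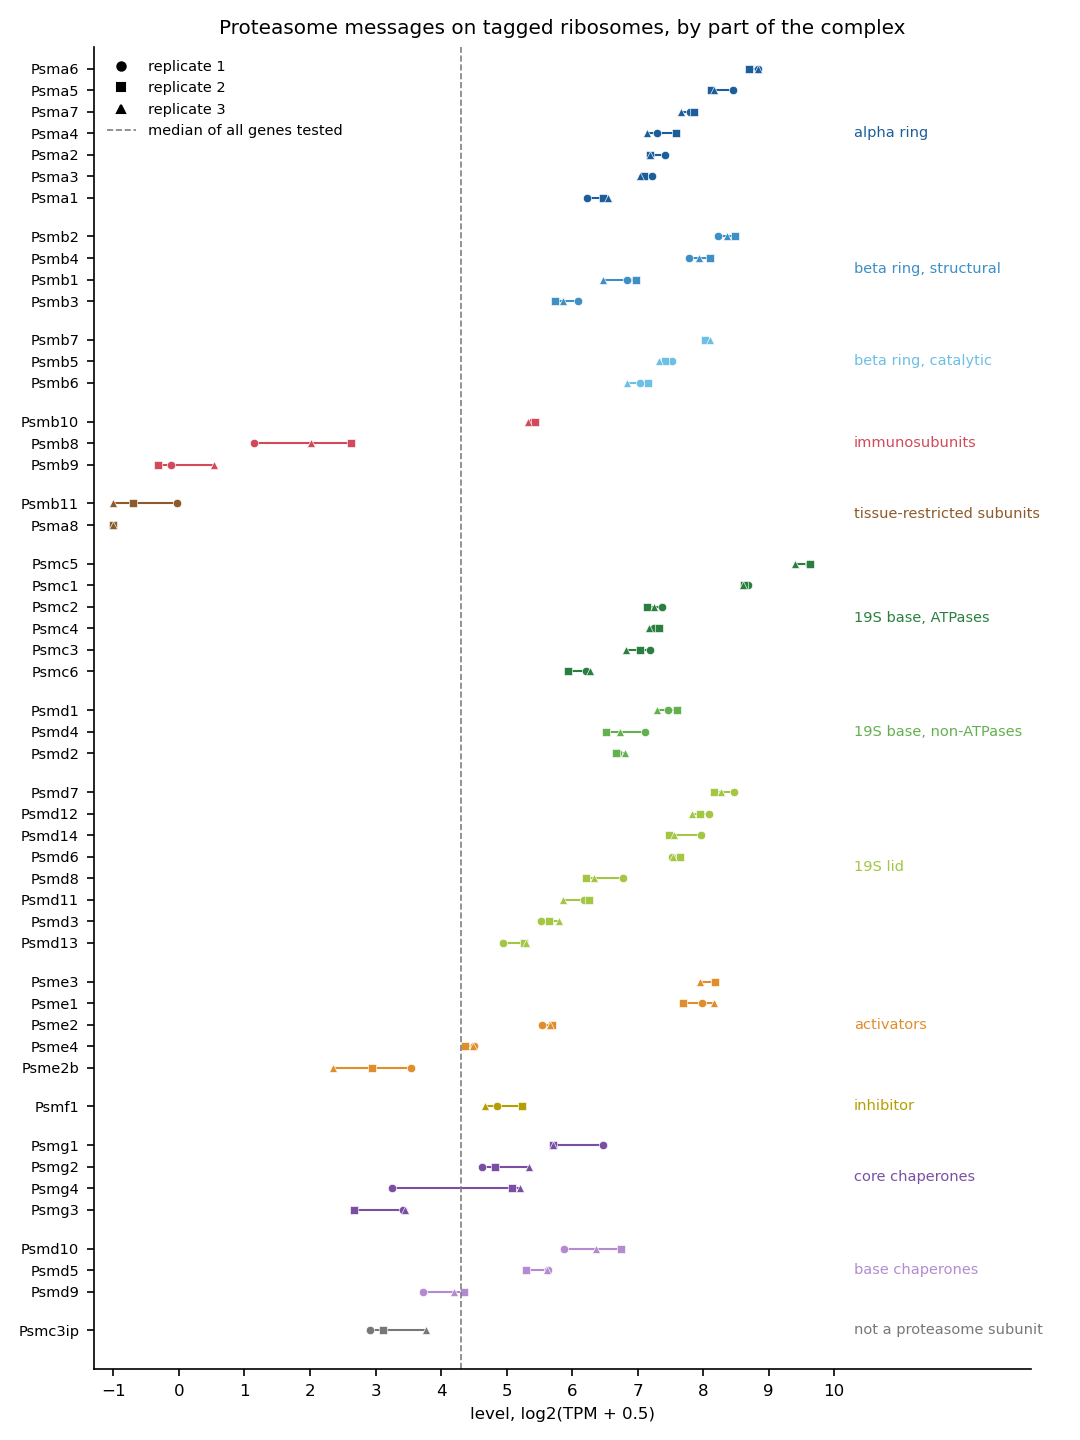
Level of each of the 50 genes in the 3 libraries, as log2(TPM + 0.5) on the horizontal axis, grouped by part of the complex and ordered by mean within it; each symbol is a library and each line spans the 3 libraries. Core, base and lid subunits lie to the right of the dashed median of all genes tested. By their means, Psmb8, Psmb9, Psmb11, Psma8, Psmd9, Psmg3, Psme2b and Psmc3ip lie to its left.

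Each complex holds equal numbers of every α subunit, yet their messages spanned a 5.17-fold range. Psma6 (α1; ENSMUSG00000021024.14, mm10 chromosome 12, 55384222 to 55418454) was highest, with 457, 413 and 455 TPM in replicates 1, 2 and 3. Psma1 (α6; chromosome 7, 114264606 to 114276118) was lowest, with 74.7, 88.4 and 93.4 TPM. The 2 genes did not overlap in any library. Between them lay Psma5 (α5) at 305 ± 40.0 TPM, Psma7 (α4) at 218 ± 15.1, Psma4 (α3) at 163 ± 25.9, Psma2 (α2) at 154 ± 14.8 and Psma3 (α7) at 139 ± 9.75 TPM (SD, n = 3 throughout). With lengths from the exons of GENCODE's basic transcript set in place of all annotated exons, Psma7 was highest at 417 TPM, Psma1 stood at 149 TPM, and Psma3 was lowest at 139 TPM.

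The β ring spanned 5.53-fold, with Psmb2 (β4) at 329 ± 29.8 TPM and Psmb4 (β7) at 247 ± 27.3 TPM highest among its structural subunits, and Psmb1 (β6) at 109 ± 19.3 TPM. Psmb3 (β3; chromosome 11, 97703399 to 97713500) was the lowest of the 14 constitutive core subunits, with 67.7, 53.1 and 57.6 TPM. Its rank leaned on the length, since the basic transcript set gave 131 TPM. Much of its sequence is also not unique: 55.8% of the 50-base stretches of its transcripts occur in other annotated genes, mostly processed pseudogenes, and reads matching more than 1 place were left out of the counts. The part that this plays in its level was not tested.

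The catalytic subunits were all well expressed. Psmb7 (β2; chromosome 2, 38588036 to 38644087) had 259, 260 and 275 TPM, and its libraries lay within 1.06-fold of each other. Psmb5 (β5; chromosome 14, 54614119 to 54618022) had 183, 170 and 161 TPM, and Psmb6 (β1; chromosome 11, 70525367 to 70527858) had 131, 142 and 114 TPM. In these libraries the order was Psmb7, Psmb5, Psmb6, with no overlap between them. By basic-set lengths Psmb7 was again highest at 573 TPM, but Psmb6 at 222 TPM then exceeded Psmb5 at 126 TPM. Of the exonic bases of Psmb7, 34.9% are shared with Nek6 on the opposite strand, and 54.1% of the 50-base stretches of Psmb5 occur in other genes, among them Psmb5-ps. The part of either in these levels was not tested.

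Across the whole core, α-ring and constitutive β-ring genes had nearly the same median, 7.40 ± 0.20 and 7.42 ± 0.09 on the log2(TPM + 0.5) scale. From the highest to the lowest of the 14 subunits the mean level differed 7.44-fold. Of the 13 neighbouring pairs in the order of means, 9 had overlapping ranges over the libraries and therefore could not be ordered by their spread. The breaks came after Psma6, after Psma5, after Psma7 and before Psmb3. With basic-set lengths 10 of the 13 pairs overlapped, and the breaks came after Psmb7, after Psma7 and after Psmb6.

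**Figure D2:**
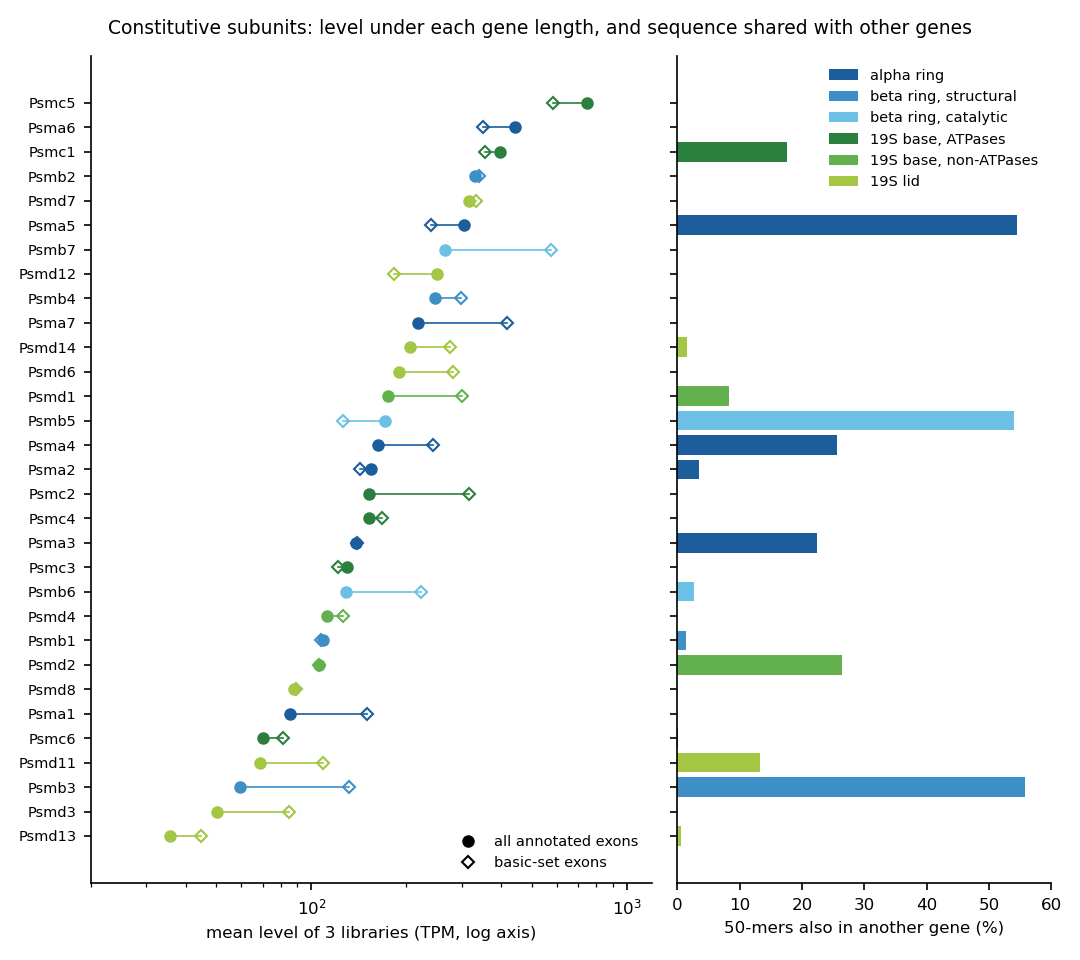
Mean level over 3 libraries of the 31 constitutive subunits (left, TPM on a log axis), with gene length taken from all annotated exons (filled circles) or from the exons of the basic transcript set (open diamonds), and the percentage of each gene's 50-base stretches that also occur in another annotated gene (right). Psmb7, Psma7, Psmc2 and Psmb3 move most with the length, and Psmb3, Psma5 and Psmb5 each share over 50% of their stretches.

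Gene length was the choice that moved levels most. Of the 50 genes, 13 moved by over 1.5 times between the sets of exons, including Psmb7, Psmb8, Psmb9, Psmc2, Psmd1 and Psmd3. Sequence shared with other genes exceeded 10% in 12 genes, 8 of them constitutive subunits (Psma3, Psma4, Psma5, Psmb3, Psmb5, Psmc1, Psmd2 and Psmd11). Reads matching more than 1 place were left out of the counts, and the part of this in the levels of these 8 was not tested.

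In the 19S base, the ATPase message Psmc5 (Rpt6 in yeast; ENSMUSG00000020708.12, chromosome 11, 106256154 to 106263120) was the highest of all 50 genes. It had 781, 789 and 675 TPM, rank 149 of 16564 genes with a count and a length. Psmc6 (Rpt4; chromosome 14, 45329788 to 45349705) was the lowest of the base at 73.9, 60.5 and 77.0 TPM. The base thus spanned 10.6-fold, although its 6 ATPases sit in a single ring in equal numbers. Psmc5 stayed highest and Psmc6 lowest of the base with basic-set lengths, at 582 and 81.1 TPM, and with the length of the longest transcript, at 565 and 83.3 TPM.

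Of the other ATPases, Psmc1 (Rpt2) stood at 397 ± 12.4 TPM, Psmc2 (Rpt1) at 152 ± 12.7, Psmc4 (Rpt3) at 152 ± 8.09 and Psmc3 (Rpt5) at 130 ± 16.02 TPM. Psmc2 and Psmc4 could not be ordered by their spread, but basic-set lengths gave 316 TPM for Psmc2 and 168 TPM for Psmc4. Among the non-ATPases of the base, the scaffold Psmd1 (Rpn2) stood at 175 ± 19.1 TPM. The other scaffold, Psmd2 (Rpn1), stood at 105 ± 5.27 TPM, close to Psmd4 (Rpn10), a ubiquitin receptor, at 112 ± 24.1 TPM.

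The lid ranged over 8.87-fold. It was led by Psmd7 (Rpn8; chromosome 8, 107580381 to 107588464), partner of the deubiquitinase, with 354, 287 and 309 TPM. Psmd12 (Rpn5) followed at 249 ± 21.7 TPM, but its place leaned on the length. With basic-set lengths Psmd12 stood at 183 TPM, below Psmd6 at 281 and Psmd14 at 275 TPM. By the longest transcript the 3 means were 255, 288 and 283 TPM. Psmd14 (Rpn11; chromosome 2, 61711694 to 61800376), the deubiquitinase itself, had 249, 177 and 187 TPM, highest in replicate 1. Psmd6 (Rpn7) stood at 189 ± 8.61 TPM, Psmd8 (Rpn12) at 87.7 ± 18.9, Psmd11 (Rpn6) at 68.7 ± 9.97 and Psmd3 (Rpn3) at 50.1 ± 4.998 TPM. Psmd13 (Rpn9; chromosome 7, 140881968 to 140898643) was the lowest of the 31 constitutive subunits selected, at 30.4, 37.9 and 38.8 TPM. Sirt3 on the opposite strand covers 17.2% of its exonic bases, and the part of this in its level was not tested. Of the 7 neighbouring pairs in the lid, 3 had overlapping ranges, those among Psmd12, Psmd14 and Psmd6 and that of Psmd8 with Psmd11. Psmd7 was highest and Psmd13 lowest of the lid under all 3 gene lengths tried.

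Medians of the particles lay close together. The median of the base minus that of the core was -0.22 ± 0.14 log2 units, and that of the lid minus the core -0.43 ± 0.18 (SD, n = 3). Without correction for length (CPM, counts scaled to the library total alone) the lid turned to 0.10 above the core, so no order of core and lid is given. With basic-set lengths the differences were -0.40 for the base and -0.64 for the lid, each over 1.5 times as large.

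The activator genes ranged over 36.0-fold. Psme3 (chromosome 11, 101316213 to 101323537), which encodes PA28γ, a nuclear activator known in brain, had 289, 290 and 246 TPM. Psme1 (chromosome 14, 55578123 to 55581529), which encodes PA28α, a cytosolic activator that interferon induces, had 254, 206 and 285 TPM, and the ranges of the 2 overlapped. With basic-set lengths Psme1 was above Psme3 in every library, at means of 362 and 224 TPM. Psme2, the gene of its partner PA28β, was lower at 46.1, 51.2 and 50.1 TPM in every library. Of the 50-base stretches of Psme2, 55.6% occur in other genes, chiefly in Psme2b, a copy of it listed at 11.1, 7.19 and 4.63 TPM, so the level of either is uncertain. Psme4, the gene of PA200, a large activator of the nucleus, stood at 21.4 ± 1.14 TPM. The inhibitor Psmf1 (PI31) had 28.3, 37.1 and 25.0 TPM, above the median of 19.2 TPM over all genes tested.

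The immunosubunits were far below the subunits they replace, with a large difference between the 3 genes. Psmb10 (β2i; chromosome 8, 105935735 to 105938444) had 41.6, 42.7 and 39.5 TPM, rank 4495. Psmb8 (β5i; chromosome 17, 34197721 to 34201454) had 1.72, 5.67 and 3.55 TPM, from 15, 35 and 31 counts. Psmb9 (β1i; chromosome 17, 34181987 to 34187764) had 0.423, 0.299 and 0.953 TPM, from 4, 2 and 9 counts, and did not reach 1 TPM in any library. Psmb8 and Psmb9 lie 9956 bases apart in the major histocompatibility complex, and Psmb10 is on another chromosome.

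Set against its partner in each library, Psmb10 was 6.35-fold below Psmb7, with a difference of -2.67 ± 0.10 log2 units. Psmb8 was 45.0-fold below Psmb5 (-5.49 ± 0.80), and Psmb9 was 126-fold below Psmb6 (-6.98 ± 0.61). All 3 differences were negative in 3 of 3 libraries. Flipping signs over libraries gave an exact two-sided p of 0.25 for each (0.25 adjusted over 3 pairs), the smallest that 3 libraries allow. Basic-set lengths gave 14.4-fold for Psmb10, 22.8-fold for Psmb8 and 146-fold for Psmb9, in the same direction. Without correction for length the differences were -3.64, -3.51 and -5.79 for Psmb10, Psmb8 and Psmb9, so that Psmb10 no longer had the smallest mean difference from its partner. Psmb9 is near the pseudocount of 0.5 TPM, and with 0.1 TPM its difference was -7.74, so its fold is set in part by that choice. As a share of each pair, Psmb10 made up 13.8%, 14.1% and 12.6% in replicates 1, 2 and 3, and Psmb8 0.930%, 3.22% and 2.16%. By basic-set lengths these shares were 6.60%, 6.75% and 5.97% for Psmb10 and 1.91%, 6.46% and 4.39% for Psmb8. Psmb9 made up under 1% in every library by either length.

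**Figure D3:**
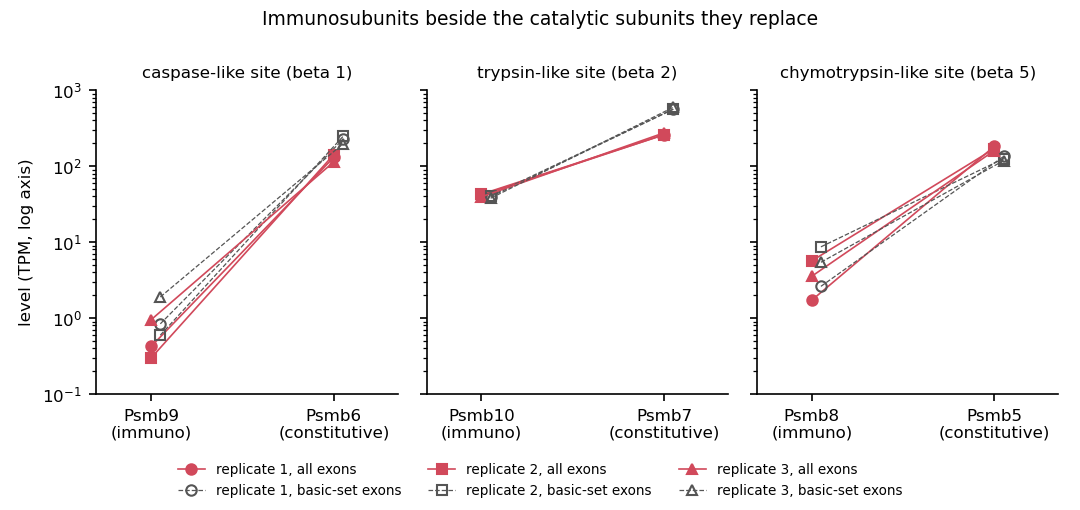
Levels of the 3 immunosubunits (left of each panel) and of the constitutive catalytic subunits they replace (right), in TPM on a log axis, with 1 line per library; filled red symbols use all annotated exons and open grey symbols the basic transcript set. Psmb10 sits near 40 TPM in every library, while Psmb8 stays below 10 TPM and Psmb9 below 2 TPM.

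Other genes of the antigen presentation and interferon pathway were mixed. The median of 10 listed genes was 5.19 TPM, against 19.2 TPM over all genes tested. Of the 10, 7 reached 1 TPM in every library and 0 of the 9 tested varied between libraries by the test described below. B2m, the light chain of class I molecules, stood at 411 ± 31.0 TPM and H2-D1, a heavy chain, at 34.3 ± 4.49 TPM. The peptide transporter genes Tap1 and Tap2, which neighbour Psmb9 and Psmb8, had 0.424, 0.0999 and 1.27 TPM and 0, 1.74 and 0.410 TPM. Nlrc5, an activator of class I genes, had 0 counts. Microglia express the immunosubunits, and 7 of 8 microglial markers reached 1 TPM in every library, with C1qa at 0. Their summed level was 70.8, 73.6 and 99.6 TPM in replicates 1, 2 and 3, and their part in the levels of Psmb8, Psmb9 and Psmb10 was not tested. In RNA from many cells, fewer cells of a type and less RNA per cell cannot be told apart.

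Assembly chaperones had a lower median than the core subunits, with some overlap between single genes. The median of the 7 minus that of the core was -2.39 ± 0.47 log2 units (SD, n = 3), and all 7 reached 1 TPM in every library. Psmg1 and Psmg2 encode PAC1 and PAC2, a pair that builds the α ring. Psmg1 had 88.5, 51.7 and 51.9 TPM, highest in replicate 1, and Psmg2 had 24.1, 27.7 and 40.1 TPM, highest in replicate 3. The other α-ring pair is PAC3 and PAC4. Psmg3 had 10.18, 5.86 and 10.4 TPM, below Psmg1 and Psmg2 in every library, and Psmg4 had 9.07, 33.5 and 36.3 TPM, a range that overlapped that of Psmg2. Psmg3 moved to 21.2 TPM with basic-set lengths, and in replicate 1 it then stood above Psmg2, at 24.4 against 23.5 TPM. Gm26938 on the same strand covers 26.8% of its exonic bases and holds 21.8% of its 50-base stretches. The part of this in its level was not tested.

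The chaperones of the base were Psmd10 (gankyrin), with 58.3, 107 and 82.0 TPM, Psmd5, with 48.9, 38.8 and 48.8 TPM, and Psmd9, with 12.7, 19.9 and 17.9 TPM. Psmd10 was lowest in replicate 1 and highest in replicate 2. Psmd9 lay below the others in every library, and was 34.5 TPM with basic-set lengths. Of the 6 neighbouring pairs in the order of the 7 means, 4 overlapped, and only Psmg1 over Psmd5 and Psmd9 over Psmg3 stood clear of each other. Neither break held with basic-set lengths. By those, 5 of the 6 pairs overlapped, only Psmd5 over Psmd9 stood clear, and Psmg4 was lowest. Pomp, the chaperone of the β ring, whose symbol lies outside the selection, stood at 186 ± 9.22 TPM.

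The tissue-restricted subunits were absent or nearly so. Psma8, an α4 variant of the testis, had 0 counts in all 3 libraries, which allows up to 0.466, 0.658 and 0.466 TPM in replicates 1, 2 and 3 at 3 counts each. Psmb11, the β5 variant of the thymus, had 6, 1 and 0 counts, or 0.485 and 0.114 TPM in replicates 1 and 2, although its gene begins 3410 bases from that of Psmb5. Such limits speak for counting error alone, because the reads carry no molecular identifiers and several may come from 1 molecule. Psmc3ip, the gene that is no subunit, stood at 9.46 ± 3.30 TPM, and 29.8% of its exonic bases are shared with Mlx on the opposite strand.

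The only test across genes that 1 group allows is of variation between libraries, made here with the goodness of fit of a negative binomial model over the whole table. Of the 50 genes, 47 had enough counts, and Psma8, Psmb9 and Psmb11 did not. No proteasome gene was called as varying between libraries (0 of 47 at an adjusted p of 0.05 in edgeR). Over all 14774 genes tested 36 were (0.244%), a share at which 0 of 47 says little. At an unadjusted p of 0.05 the count was also 0 of 47, against 7.22% of all genes, and the limma variance test called 0 as well. A p above the threshold does not show that levels were equal. The dispersion was fitted to these same libraries. A gene is therefore said to vary only where its spread exceeded what the model gives for its abundance. Between pairs of libraries the proteasome genes did differ beyond sampling noise, with a chi-square per gene of 10.8 to 13.7.

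Ranges over the libraries differed between parts of the complex. Ratios between libraries were taken here from TMM-scaled CPM with the pseudocount added, which narrows them for genes with few counts. The median ratio of the highest to the lowest library was 1.22 for the 14 core subunits, 1.18 for the 9 of the base and 1.25 for the 8 of the lid, against 1.42 over all genes tested. Lower counts give wider ratios, and core, base and lid subunits are more abundant than most genes. The median deviance from the model, which takes abundance into account, was 1.10 for the 47 genes and 1.27 for all genes. The 7 chaperones had a median ratio of 1.68, and 6 of them exceeded 1.5-fold, against 44.3% of all genes.

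**Figure D4:**
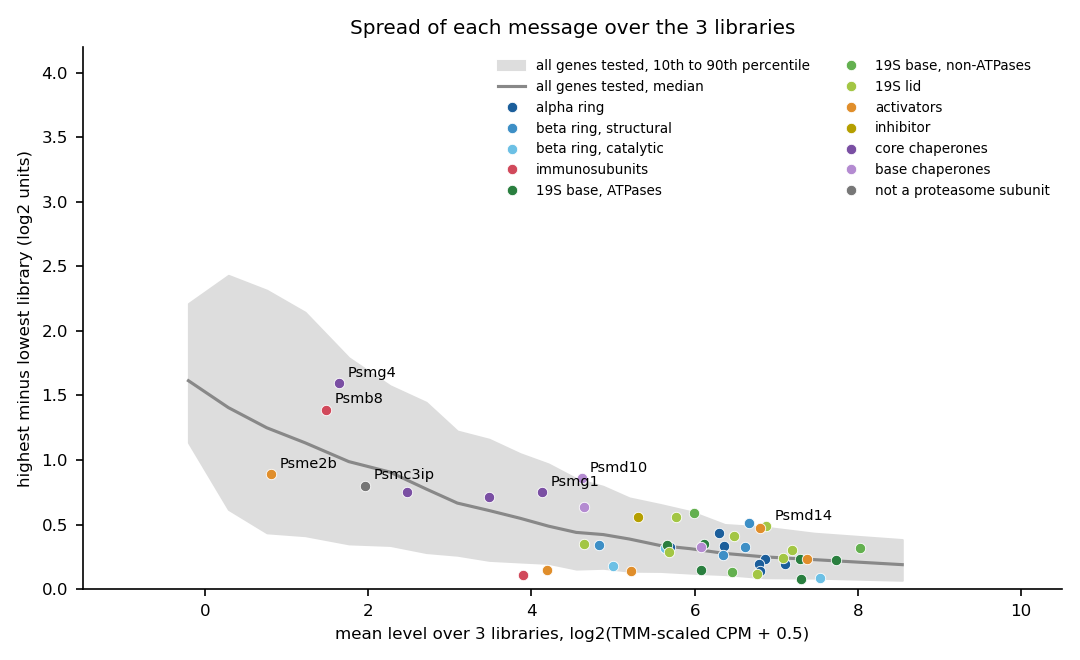
Difference between the highest and the lowest library (log2 units of TMM-scaled CPM + 0.5) against mean level for the 47 genes tested, coloured by part of the complex; the grey line and band give the median and the 10th to 90th percentile of all 14774 genes in 20 bins of abundance. Members lie on both sides of the grey line, and Psmg4, Psmb8, Psme2b and Psmd10 have the widest spreads.

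The 5 genes with the smallest unadjusted p were Psmd10, Psmd14, Psmd4, Psmb1 and Psmg1. Psmd10 had an unadjusted p of 0.120 and an adjusted p of 0.868 in edgeR, with 1.81-fold between libraries. Psmd14 followed with a p of 0.121 and 1.40-fold, Psmd4 with 0.133 and 1.51-fold, Psmb1 with 0.145 and 1.43-fold, and Psmg1 with 0.164 and 1.68-fold. They did not share a direction: Psmd14, Psmd4 and Psmg1 were highest in replicate 1, while Psmd10 and Psmb1 were highest in replicate 2. The widest ratios were 3.03-fold for Psmg4, from 13, 34 and 52 counts, and 2.62-fold for Psmb8. They were the only members of the 47 above 2-fold, which 24.0% of all genes tested exceeded.

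No library stood apart for the whole set. The median deviation of the 47 genes from their own means was 0.05, -0.00359 and -0.03 log2 units in replicates 1, 2 and 3, against 0.00375, -0.00126 and -0.00108 over all genes tested. The 47 genes were lowest in replicates 1, 2 and 3 in 14, 16 and 17 cases. Core genes were lowest in replicate 3 in 6 of 14 cases, base genes in 5 of 9 and chaperones in 0 of 7, against 33.4% of all genes tested.

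Partners of the proteasome outside the selection were read from lists of other pathway genes, whose medians are to be set against 19.2 TPM over all genes tested. The median was 51.4 TPM for further proteasome factors and 136 TPM for shuttle and segregase genes. Of 10 further proteasome factors in the tables, all 10 reached 1 TPM in every library and 0 varied, where 0.244% of all genes tested did, a share at which 0 in lists of this size says little. Akirin2, which carries proteasomes into the nucleus, was highest at 270 ± 11.99 TPM, followed by Pomp, and Fbxo7 was lowest at 6.49 ± 0.659 TPM. The remaining subunits Adrm1 (Rpn13) and Shfm1 (Sem1 in current naming) stood at 26.7 ± 0.860 and 24.3 ± 4.72 TPM. Of 10 shuttle and segregase genes, all 10 reached 1 TPM in every library and 0 varied, with Ubqln2 at 282 ± 12.4 TPM, Ubqln1 at 229 ± 23.7 TPM and the protease gene Ddi2 at 3.12 ± 0.176 TPM. Uba1, the main ubiquitin-activating enzyme, stood at 304 ± 10.4 TPM.

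Proteasome genes are induced together by NFE2L1 (also called NRF1), a transcription factor cleaved by DDI2 when proteasomes are short. Nfe2l1 itself stood at 306 ± 28.1 TPM in these libraries, the highest of 7 genes of that pathway, of which 6 reached 1 TPM in every library and 0 varied. The median of the 7 was 15.9 TPM. Nfe2l2, a related factor, had 19.4, 29.8 and 46.0 TPM, with an unadjusted p of 0.0125 and an adjusted p of 0.464 in edgeR, and Ddi2 was lowest.

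The core of the antioxidant response element that such factors bind, TGACNNNGC, was looked for on both strands of RefSeq promoter windows of GRCm38.p6, from 250 bases before to 50 after the gene start. Windows were found for 42 of the 50 genes. The motif was in 6 of them, or 14.3%, against 13.99% of 27025 genes with a window, so its share was near the background. The 6 were Psmb5, Psmb6, Psmc6, Psmd12, Psmd9 and Psme4. The sites of Psmb5 and Psmb6 are shown because these are the catalytic subunits among the 6, with the motif in capitals and 10 bases on either side, 5′ to 3′ along the gene's strand. Coordinates include these flanks, while the distance given is that of the motif's first base.
Psmb5 (chr14:54618024-54618052, minus strand, starting 47 bases before the RefSeq gene start): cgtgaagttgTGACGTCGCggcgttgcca
Psmb6 (chr11:70525338-70525366, plus strand, starting 9 bases before the RefSeq gene start): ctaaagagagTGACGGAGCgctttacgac

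The core of the interferon-stimulated response element, GAAANNGAAA, was in 5 of the 42 windows, or 11.9%, against 3.99% of all genes with a window. It did not overlap the other motif at any of these sites. The 5 were Psmb3, Psmd4, Psmd9, Psme1 and Psmg4, and so only 1 of the 5 interferon-induced genes Psmb8, Psmb9, Psmb10, Psme1 and Psme2 held it. Absence says only that these letters are not in the window. The sites of Psme1, the abundant inducible activator, and of Psmb3 and Psmg4 are shown as examples, with the motif in capitals on the strand of the gene. In Psme1 and Psmb3 it reads as its reverse complement. Coordinates again include 10 bases on either side, while the distance given is that of the motif's first base along the gene. Values after the gene start are positions that count the start base itself as 1.
Psme1 (chr14:55578493-55578522, plus strand, starting 10 bases after the RefSeq gene start): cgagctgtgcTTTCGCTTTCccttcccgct
Psmb3 (chr11:97703261-97703290, plus strand, starting 163 bases before the RefSeq gene start): cacagtgactTTTCACTTTCcgctttccat
Psmg4 (chr13:34162969-34162998, plus strand, starting 16 bases after the RefSeq gene start): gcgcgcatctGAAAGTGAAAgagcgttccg
A match is a description of sequence, and binding was not measured.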

How the data were processed

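RNA was measured in 3 libraries of 1 group. Each file holds raw counts by gene symbol as deposited, with HTSeq summary lines at its end. The submitters' processing notes name STAR 2.0.0e, HTSeq and mm10 but no settings. Annotation and strand use: not given in the sources used here. Lines naming no gene held 27.8% ± 0.563 of counts (SD, n = 3), 13.3% being reads placed more than once, and were left out. Proteasome genes and gene lists were chosen with earlier results of these data known. Genes named by rule were the highest and lowest of each part, all members of parts of up to 4 genes and of the catalytic and immunosubunits, genes with a 0 count, the 5 smallest p, and the 2 highest and the lowest of each other list. The other members of the larger parts were added to account for each gene. Some results of 1 list are not reported here.

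TPM were computed from merged exons of GENCODE M21, matched by symbol or unique older symbol (90.1% of symbols with a count, all 50 proteasome genes). Log2 values used a pseudocount of 0.5. Rn45s had no length and is not in TPM. Shared sequence is the percentage of 50-base stretches of a gene's basic transcripts found in transcripts of other genes, and exon overlaps also used basic transcripts. Variation was tested with edgeR 4.0.16 (intercept-only fit, TMM, trended dispersion, deviance against chi-square with 2 degrees of freedom, Benjamini-Hochberg over all genes with at least 10 counts in 1 library) and tested on simulated data. Alternatives used limma 3.58.1, DESeq2 1.42.0 size factors, other filters, lengths and pseudocounts, and each library left out. The scripting languages were Python 3.11.15 (pandas 2.3.3, numpy 2.4.6) and R 4.3.3.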

Additional observations from a re-analysis of the deposited data

How the results depend on the processing

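Which gene leads the core depends on gene length, depth limits Psmb8, Psmb9 and Psmb11, and a threshold on 3 libraries detects only large changes. No paired analysis was possible because there is 1 group. The set of basic transcripts was chosen after seeing the data. The number of proteasome genes called as varying was 0 in every setting, with a smallest adjusted p of 0.172 in edgeR for Psmg4 with a common dispersion. At an unadjusted p of 0.05 it was 1 with a common dispersion and 2 without replicate 3, against 0 as reported. Over all genes 36 varied, against 1097 with a common dispersion, 12 by limma, 18 at an adjusted p of 0.01 and 16 to 21 with 1 library left out.

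With the longest transcript as length, the median of the proteasome genes was 121 TPM, the α-ring median 7.82, the β-ring median 7.61, the base minus core difference -0.58 and the core spread 5.78-fold. In CPM these were 65.7 CPM, 6.76, 6.34, -0.051 and 6.62-fold, the lid minus core difference reversed to 0.10, and the immunosubunits lay at -4.32 from the catalytic subunits. Basic-set lengths gave 124 TPM, 7.78, 7.79, -0.40, 5.34-fold and -0.64 for the lid. The immunosubunit difference, -5.05 in the mean over 3 pairs, became -5.36 with a pseudocount of 0.1. Without genes under 1 TPM it was -3.84. That setting removed Psmb9 but kept Psmb6, so the value is the mean of Psmb8 and Psmb10 minus that of all 3 catalytic subunits. Causes were not tested beyond these constructions. With 1 library left out, ranges were 47 to 47 genes at 1 TPM, 103 to 109 TPM for the median, 7.31 to 7.50 for the α ring, 7.38 to 7.47 for the β ring, -0.29 to -0.15 for the base, -0.48 to -0.32 for the lid, -2.63 to -2.17 for chaperones, -5.17 to -4.88 for immunosubunits and 7.21 to 7.85 for the core spread. Differences for Psmb8, Psmb9 and Psmb10 ranged from -5.84 to -5.05, -7.32 to -6.73 and -2.70 to -2.61.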
